A study of Mus musculus with 62 samples.

Results

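The SR splicing factors described here are the products of 10 mouse genes, Srsf1, Srsf2, Srsf3, Srsf4, Srsf5, Srsf6, Srsf7, Srsf9, Srsf10 and Srsf11. They were taken by Entrez identifier from count tables of 17653 genes in the prefrontal cortex, 17874 in the striatum and 16206 in the liver, and all 10 were listed in each table and passed the filter on low counts in each tissue. Srsf5 and Srsf6 had been picked because their levels were higher in brain at 6 mg/kg, so their brain values at that dose are given as a description without a test. The 62 libraries came from female C57BL/6 mice, an inbred strain, that were given the MARBLES mixture of polychlorinated biphenyls (PCBs, persistent chlorinated industrial chemicals) by mouth. The dose groups were vehicle, 0.1, 1 and 6 mg/kg, with 4, 5, 6 and 6 libraries for each brain region (prefrontal cortex and striatum) and 4, 4, 6 and 6 for the liver. Age, duration of dosing and the vehicle are not given in the sources used here. Each library carries an animal number, and the numbers differ between dose groups, so libraries of a group were taken as separate mice. Brain RNA came from tissue punches, which hold many cell types, so fewer cells of a type and less RNA per cell cannot be told apart in these bulk measurements.

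SR proteins join RNA recognition motifs to a tail rich in arginine and serine. They bind splicing enhancers in exons and help the spliceosome to find nearby splice sites. SRPK and CLK kinases phosphorylate the tail, which sets whether the protein stays in nuclear speckles or acts on pre-mRNA. SR genes also hold conserved poison exons, whose inclusion sends their own transcript to nonsense-mediated decay. Counts per gene do not separate transcripts with a poison exon from those that encode protein.

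The genes lie on several chromosomes in assembly GRCm38.p6, the RefSeq build of mm10. Srsf5 spans chr12:80945495-80950507 and Srsf6 spans chr2:162931508-162937121, both on the plus strand (Entrez 20384 and 67996). Srsf10 (Entrez 14105) spans chr4:135855752-135869908 on the plus strand and Srsf11 (Entrez 69207) spans chr3:158010915-158036667 on the minus strand. Srsf2 (Entrez 20382) lies at chr11:116849897-116853675 and Srsf7 (Entrez 225027) at chr17:80200080-80207369, both on the minus strand. The bases upstream of the annotated starts of Srsf5 and Srsf6 are shown because both genes were chosen for the same brain difference. The sequences are from RefSeq. Capitals mark matches on either strand to GCGTG (the core of the site bound by the aryl hydrocarbon receptor, a sensor of dioxin-like PCBs), to TGACG (a cyclic AMP response half-site) and to CCGGAAGT (an ETS factor site).
Srsf5, chr12:80945249-80945494: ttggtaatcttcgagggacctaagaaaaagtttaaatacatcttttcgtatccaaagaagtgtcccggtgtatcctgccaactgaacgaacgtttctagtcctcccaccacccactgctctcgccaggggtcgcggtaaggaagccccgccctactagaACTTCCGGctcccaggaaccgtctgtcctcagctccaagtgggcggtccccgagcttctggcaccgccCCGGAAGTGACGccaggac
Srsf6, chr2:162931258-162931507: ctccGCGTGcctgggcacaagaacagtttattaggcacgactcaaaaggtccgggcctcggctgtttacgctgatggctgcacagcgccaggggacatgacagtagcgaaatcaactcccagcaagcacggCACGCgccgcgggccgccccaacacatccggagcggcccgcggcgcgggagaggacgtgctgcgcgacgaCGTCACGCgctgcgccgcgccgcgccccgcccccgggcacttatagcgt
The Srsf5 window of 246 bases held no match to GCGTG, 1 to TGACG and 2 to CCGGAAGT, with 1 base shared by the last ETS match and the half-site. The Srsf6 window of 250 bases held 3 matches to GCGTG, 1 to TGACG and none to CCGGAAGT, and its half-site overlaps a match to GCGTG. Among 32851 RefSeq promoter windows of 250 bases, 28.2% held GCGTG, 17.8% held TGACG and 2.88% held CCGGAAGT. Among the 10 SR genes, 5, 6 and 3 held them in at least 1 window. Srsf4 and Srsf11 have more than 1 window, so these counts per gene and the shares per window are not the same measure. These matches describe letters in a window and not binding.

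In vehicle mice all members were well measured. Their counts ran from 159 to 2582 over all libraries, and together they took 0.0936% of counts in the prefrontal cortex, 0.102% in the striatum and 0.075% in the liver. Levels between genes are compared per kb of the longest transcript. Srsf2, a core component of nuclear speckles, had the highest level in every tissue, at 56.4 ± 3.24 CPM per kb in the prefrontal cortex, 76.6 ± 9.07 in the striatum and 63.1 ± 8.33 in the liver (CPM, counts relative to a library size scaled by the TMM method; SD, n = 4). Srsf5 came next in all 3 tissues, at 38.2 ± 3.36, 37.3 ± 1.82 and 42.9 ± 13.7 CPM per kb. Srsf10, which represses splicing when its tail is dephosphorylated, was lowest at 14.3 ± 0.861, 16 ± 1.62 and 8.67 ± 0.757 CPM per kb. In both brain regions the vehicle libraries of Srsf2 and of Srsf10 did not overlap those of their neighbour in the order, while every other neighbouring pair overlapped. In the liver every neighbouring pair overlapped. In the plot of vehicle levels the order differs between brain and liver: Srsf7, Srsf3 and Srsf1 ranked 3, 5 and 7 in the prefrontal cortex and 7, 8 and 9 in the liver, while Srsf9 and Srsf6 ranked 6 and 9 there and 3 and 4 in the liver. These ranks were not tested.

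**Figure D1:**
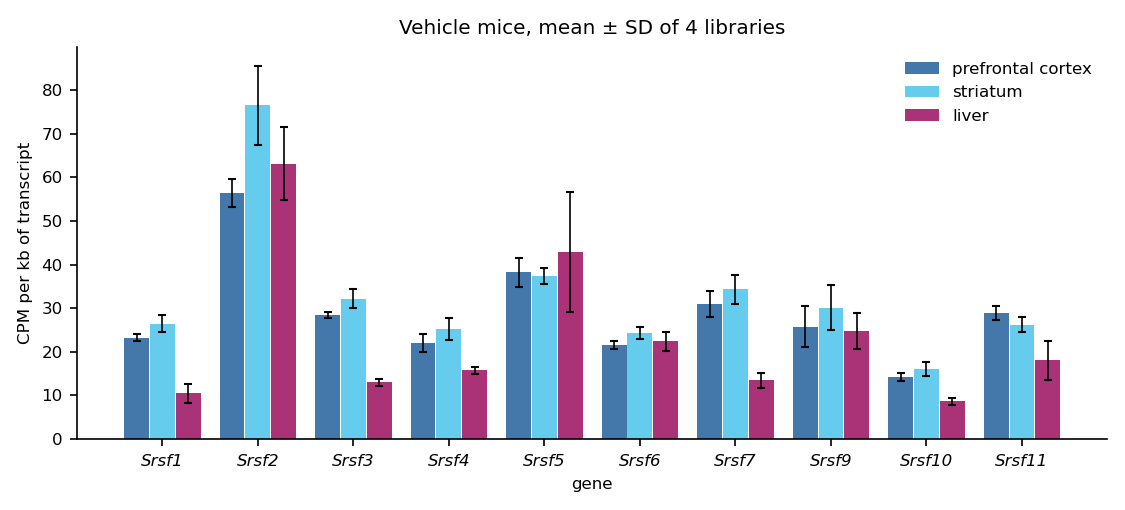
Mean level of each SR gene in CPM per kb of transcript (y axis) in vehicle mice, with bars for the 3 tissues and error bars of 1 SD (n = 4 libraries). Srsf2 is highest and Srsf10 lowest in each tissue, and libraries were scaled within a tissue.

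Between vehicle tissues, 1 of 10 members passed an adjusted p of 0.05 in the striatum against the prefrontal cortex (edgeR's quasi-likelihood test with Benjamini-Hochberg adjustment over all genes, used throughout), where 22.2% of 14514 genes passed and 11% passed as higher. That member was Srsf2, at 128, 134, 155 and 165 CPM in the striatum and 101, 105, 107 and 116 CPM in the prefrontal cortex (each scaled within its tissue), with a log2 fold change of 0.36 (SE 0.101, adjusted p = 0.019). The ranges did not overlap. The call was lost without animal 3 (0.39, adjusted p = 0.0652), animal 7 (0.33, adjusted p = 0.084) or animal 8 (0.32, adjusted p = 0.0752), and was kept with the animal number as a block (0.36, adjusted p = 0.0115). Srsf2 shares bases with Mfsd11 on the map, Srsf4 with Gm12992 and Srsf9 with Gatc, and the use of strand in counting is not given in the sources used here, so reads of these pairs cannot be told apart.

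Liver and brain levels differed for several SR genes. Against the prefrontal cortex, 5 of 10 members passed and all were higher in the liver, where 84.9% of 13838 genes passed, 38.9% passed as higher and the median gene was at -0.19 (log2). These were Srsf2 at 1.10 (SE 0.122), Srsf4 at 0.45 (SE 0.111), Srsf5 at 1.10 (SE 0.197), Srsf6 at 0.99 (SE 0.109) and Srsf9, a short family member, at 0.88 (SE 0.161), with adjusted p from 1.07e-06 to 0.00177. Srsf1, which binds purine-rich enhancers, stood at -0.21 (SE 0.142), and Srsf3 and Srsf7, shuttling members that also act in mRNA export, stood at -0.20 (SE 0.0993) and -0.27 (SE 0.121). These scales depend on the normalization. With library totals in place of TMM the median of all genes fell to -0.893, Srsf1, Srsf3 and Srsf7 passed as lower (-0.92, -0.91 and -0.97), Srsf4, Srsf10 and Srsf11 changed sign to -0.26, -0.49 and -0.46, and Srsf5 and Srsf9 no longer passed (adjusted p = 0.0622 and 0.317). Srsf2 and Srsf6 were higher in the liver under both scalings. Relative to the median gene, Srsf2, Srsf5, Srsf6 and Srsf9 lay above it and Srsf1, Srsf3 and Srsf7 lay just below it in both.
Against the striatum, 8 of 10 passed, where 83.7% of 13971 genes passed, with 6 higher in the liver (Srsf2, Srsf4, Srsf5, Srsf6, Srsf9 and Srsf11; background 38.1%) and 2 lower (Srsf3 and Srsf7; background 45.6%). With the animal number as a block, 7 passed and Srsf3 did not (adjusted p = 0.0593). With library totals, Srsf4 was called in the opposite direction at -0.35 (adjusted p = 0.02), Srsf10 and Srsf1 passed as lower at -0.56 and -1.02, Srsf11 changed sign to -0.23, and Srsf2, Srsf6, Srsf9 and Srsf11 did not pass. Srsf5 passed as higher and Srsf3 and Srsf7 as lower under both scalings, but without animal 3, 4 or 7 neither Srsf3 (adjusted p = 0.109, 0.089 and 0.0833) nor Srsf7 (0.182, 0.0821 and 0.0517) passed, and 5 of 10 members did.

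Library facts bear on the dose comparisons. Libraries held 7381179 to 12135200 counts. In the striatum they held 8553800 to 9197051 counts at 6 mg/kg and 10147296 to 10459212 counts in vehicle, without overlap. Striatal libraries at 0.1 mg/kg held 8737307 to 12019651 counts and overlapped both. In the prefrontal cortex and the liver the 6 mg/kg and vehicle ranges overlapped. The part of depth in the dose comparisons was not tested. A GC slope was computed for each library, as Spearman's rho over genes of GC content with that library's departure from its tissue mean, and it differed between dose groups. In the striatum it ran from 0.28 to 0.418 at 6 mg/kg, from -0.558 to 0.277 (median -0.422) at 1 mg/kg, from -0.307 to -0.0279 (median -0.0759) at 0.1 mg/kg and from -0.398 to 0.382 in vehicle. In the liver it ran from -0.016 to 0.232 at 6 mg/kg and from -0.271 to -0.153 in vehicle, without overlap. Tissue labels were met by their markers: Alb, the main hepatocyte secretory product, was at 50630 to 116300 CPM in the liver and at 0 in 11 of 21 prefrontal cortex libraries. Prefrontal cortex punches also carried striatal projection neuron genes (summed level of 6 of 6 markers, 857 to 2747 CPM, against 2510 to 6128 CPM in the striatum), and Slc17a7, a cortical excitatory neuron gene, ran from 42.2 to 1362 CPM in striatal libraries.

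Srsf5, first described as a growth-induced gene of regenerating liver, had higher mean levels at 1 and 6 mg/kg than in vehicle in both brain regions, and a lower mean at 0.1 mg/kg. In the striatum its level was 124, 126, 132 and 138 CPM in vehicle, 113, 115, 116, 124 and 126 CPM at 0.1 mg/kg, from 154 to 199 CPM (median 157) at 1 mg/kg and from 149 to 210.1 CPM (median 172) at 6 mg/kg. Every library at the higher doses lay above every library of vehicle and of 0.1 mg/kg. In the prefrontal cortex the levels were 118, 132, 137 and 146 CPM in vehicle, 99.4, 117, 121, 133 and 136 CPM at 0.1 mg/kg, from 135 to 191 CPM (median 163) at 1 mg/kg and from 144 to 184 CPM (median 155) at 6 mg/kg. There the 6 mg/kg range overlapped vehicle and did not overlap 0.1 mg/kg. At 6 mg/kg against vehicle the log2 fold change was 0.42 (SE 0.0945) in the striatum and 0.26 (SE 0.1) in the prefrontal cortex, the values behind its choice. With the GC and length offset these were 0.51 (SE 0.0985) and 0.16 (SE 0.103). The oligodendrocyte markers given below for Srsf10 also differed between these striatal groups. In the striatum 1.67% of genes had no overlap and higher levels in that contrast. At 6 against 0.1 mg/kg Srsf5 stood at 0.55 (SE 0.0886) in the striatum and 0.39 (SE 0.0942) in the prefrontal cortex, where 3.99% and 0.337% of genes had no overlap and higher levels.
Srsf6, like Srsf5 a regulator of alternative exons, was at 73.1, 73.4, 76.9 and 80.6 CPM in vehicle prefrontal cortex, at 78.5, 79.6, 81.7, 93.0 and 93.8 CPM at 0.1 mg/kg, from 82.2 to 99.3 CPM (median 89.1) at 1 mg/kg and from 92.1 to 104 CPM (median 95.9) at 6 mg/kg. The group means went up with dose, and the vehicle libraries lay below all libraries at 1 and 6 mg/kg. In the striatum the mean was highest at 1 mg/kg (102 ± 8.93 CPM, SD, n = 6) and was 85.8 ± 5.08 CPM in vehicle (n = 4) and 94.0 ± 6.22 CPM at 6 mg/kg (n = 6). At 6 mg/kg against vehicle Srsf6 stood at 0.35 (SE 0.0767) in the prefrontal cortex and 0.13 (SE 0.0821) in the striatum, again as a description, and at 0.27 (SE 0.0739) and 0.20 (SE 0.0613) with the offset. In fits of only the 2 groups compared, 6 against 0.1 mg/kg gave 0.19 (SE 0.0814) in the prefrontal cortex and -0.03 (SE 0.0741) in the striatum. Such a fit of 0.1 mg/kg against vehicle gave 0.15 (SE 0.0782) in the striatum. With the offset, Srsf6 at 6 against 0.1 mg/kg stood at 0.08 in both the prefrontal cortex (SE 0.0687) and the striatum (SE 0.0572).

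**Figure D2:**
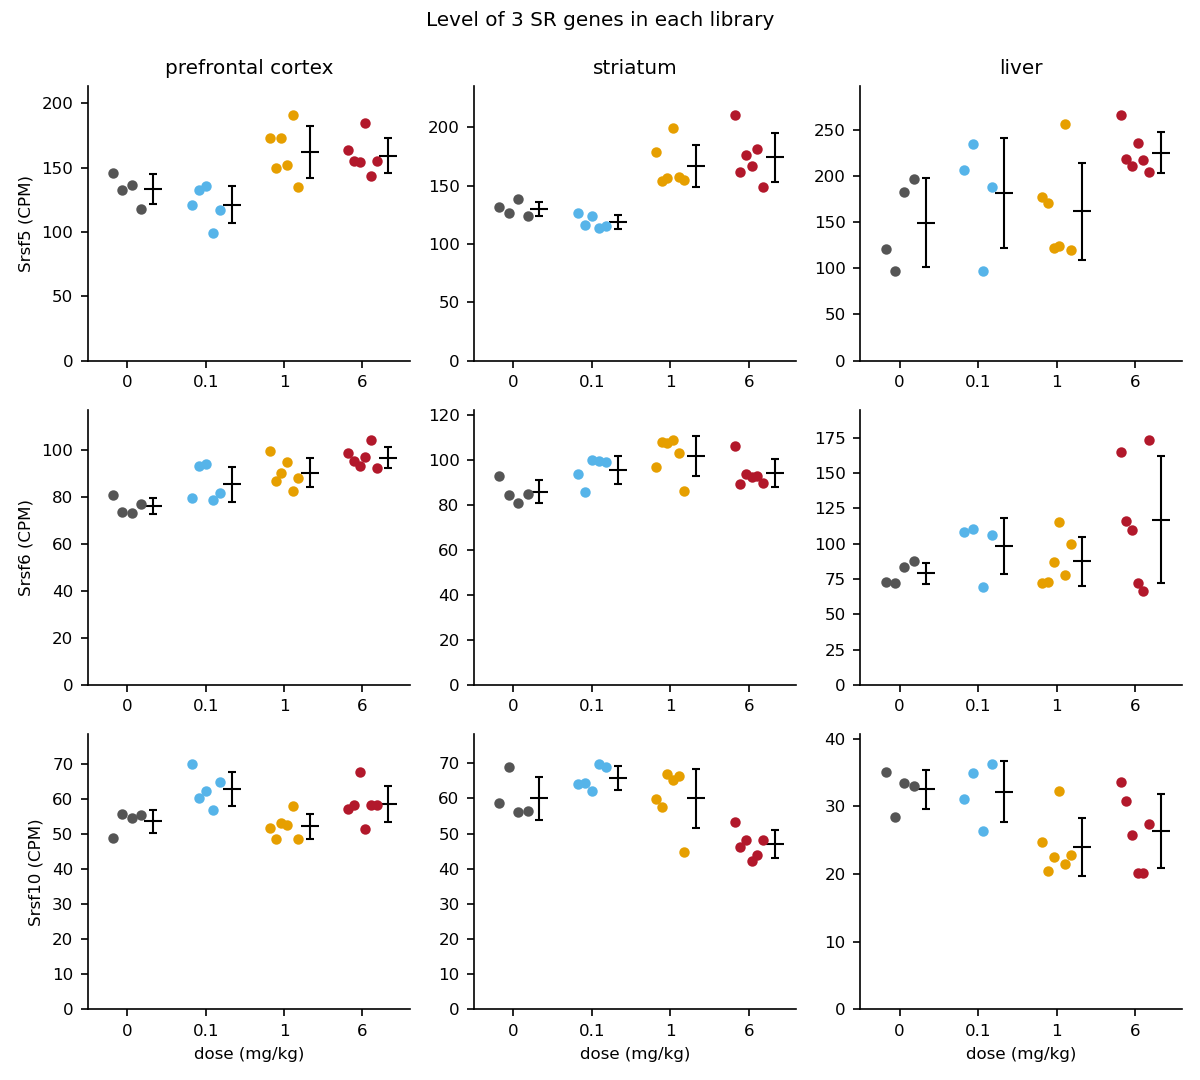
CPM of Srsf5, Srsf6 and Srsf10 (rows, y axis from 0) against dose in mg/kg (x axis, in order and not to scale) in the 3 tissues, with each point a library and the mean ± SD beside each group. In the striatum all Srsf5 points at 1 and 6 mg/kg lie above those of vehicle and 0.1 mg/kg, and the 6 mg/kg points of Srsf10 lie below those of vehicle and 0.1 mg/kg.

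The difference between 1 and 0.1 mg/kg uses neither the vehicle nor the 6 mg/kg libraries, although those share in the estimate of the spread. Srsf5 and Srsf6 were picked for higher brain levels at 6 mg/kg. Whether the 0.1 mg/kg libraries also entered that choice is not known, so the brain p-values of both genes here may not be independent of it. With edgeR no member passed in any tissue, against 0% of 14838 genes in the prefrontal cortex, 0.00661% of 15118 in the striatum and 0.0154% of 12968 in the liver. At an unadjusted p under 0.05 the counts were 4 of 10 (1 higher, 3 lower), 3 of 10 (1 higher, 2 lower) and 2 of 10 (0 higher, 2 lower). The shares of all genes, in either direction, were 5.27%, 9.64% and 6.52%. Leaving out a library in turn gave 3 to 4, 1 to 3 and 1 to 2 members. The median log2 fold change of the members was -0.0542, -0.0678 and -0.17. Srsf5 had the smallest p of the members in both brain regions, with a log2 fold change of 0.49 in the striatum (SE 0.0884, edgeR adjusted p = 0.0595) and of 0.42 in the prefrontal cortex (SE 0.0942, adjusted p = 0.28). DESeq2 called it in both (adjusted p = 0.00013 and 0.0256), as did edgeR with 1 surrogate variable (0.0405 and 0.0245). Over all genes DESeq2 called 0.549% in the striatum and 0.0876% in the prefrontal cortex, and the fit with a surrogate variable called 0.0397% and 0.195%. With the 2 groups alone in the fit Srsf5 stood at 0.49 (SE 0.0826, edgeR adjusted p = 0.0854) in the striatum and 0.42 (SE 0.104, adjusted p = 0.476) in the prefrontal cortex. Leaving out a library in turn gave 0.43 to 0.51 in the striatum with adjusted p from 0.0461 to 0.243, the former without animal 48 at 1 mg/kg. An offset for GC content and length gave 0.37 (adjusted p = 0.0992) in the striatum and 0.41 (0.0984) in the prefrontal cortex, and under it Srsf7 passed in the striatum at -0.29 (adjusted p = 0.0419), where 0.225% of genes passed. The Srsf5 groups did not overlap in the striatum, as for 0.714% of genes with higher levels, and Srsf7 (-0.19, SE 0.0828, edgeR adjusted p = 0.477) did not overlap with lower levels, as for 0.595%. Summed cortical excitatory neuron markers in the striatum were at 260 to 1698 CPM (median 487.9) at 1 mg/kg and 172.1 to 409.7 CPM (median 189.4) at 0.1 mg/kg. Striatal projection neuron markers were at 2510 to 5124 CPM (median 2849) and 2856 to 4891 CPM (median 4158). The part of these markers was not tested. In the liver Srsf5 stood at -0.17 (SE 0.247), and Srsf2 did not overlap, at 95.9 to 121 CPM at 1 mg/kg against 123 to 158 CPM at 0.1 mg/kg (-0.41, SE 0.132, edgeR adjusted p = 0.661), as for 0.586% of genes with lower levels. Srsf6 stood at 0.08 (SE 0.0712) in the prefrontal cortex and 0.09 (SE 0.0767) in the striatum, within the spread between libraries.
At 1 mg/kg against vehicle, a comparison that shares the vehicle libraries with the choice, Srsf5 stood at 0.36 (SE 0.0943, adjusted p = 0.57) in the striatum and 0.28 (SE 0.1, adjusted p = 0.588) in the prefrontal cortex, and Srsf6 at 0.25 (SE 0.0822, adjusted p = 0.675) and 0.25 (SE 0.0765, adjusted p = 0.588). None passed. With the GC and length offset the striatal values fell to 0.20 (SE 0.0976) for Srsf5 and 0.12 (SE 0.061) for Srsf6. Srsf5 in the striatum and Srsf6 in the prefrontal cortex did not overlap vehicle, as for 0.456% and 1.06% of genes with higher levels.

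Srsf10 went the other way in the striatum. Its level was 56.1, 56.3, 58.8 and 68.98 CPM in vehicle, 62.1, 64.1, 64.3, 68.9 and 69.9 CPM at 0.1 mg/kg, from 44.7 to 66.9 CPM (median 62.5) at 1 mg/kg and from 42.3 to 53.4 CPM (median 47.2) at 6 mg/kg. Every 6 mg/kg library lay below every library of vehicle and of 0.1 mg/kg. Against vehicle the log2 fold change was -0.35 (SE 0.101, edgeR adjusted p = 0.208), and 1.91% of genes had no overlap and lower levels. Against 0.1 mg/kg, a comparison added after the values were seen, Srsf10 fell by 0.49 on the log2 scale (SE 0.0949, edgeR adjusted p = 0.027). It was the only one of 8 tested members to pass there, where 2.91% of 15118 genes passed and 1.25% passed as lower. At an unadjusted p under 0.05 there were 5 of 8, against 22.3% of genes. The call was lost without 0.1 mg/kg animal 23 (adjusted p = 0.0592), 25 (0.0531) or 29 (0.0909), with log2 fold changes of -0.50, -0.51 and -0.47. It was kept with the GC and length offset, at -0.36 (adjusted p = 0.0345), where 0.291% of genes passed. Srsf10 has a GC content of 41.4%, and its deviations within dose groups of the striatum correlated with the library GC slope at r = -0.728 over 21 libraries. The summed oligodendrocyte markers (5 of 5 listed, none at 0) were at 5876 to 8081 CPM in the striatum at 6 mg/kg, 4108 to 6262 CPM at 0.1 mg/kg and 3888 to 5863 CPM in vehicle, and the astrocyte markers (5 of 5) were at 1338 to 2248 CPM, 2008 to 2640 CPM and 2241 to 2387 CPM in the same order. The endothelial markers (4 of 4) were at 142.4 to 168.7 CPM at 6 mg/kg, 134.2 to 144.3 CPM at 0.1 mg/kg and 145.2 to 163.6 CPM in vehicle. The part of these cell types in the result was not tested.
Srsf7 showed a similar order in the striatum, with 89.5, 91.2, 94.9, 96.5 and 98.4 CPM at 0.1 mg/kg against 65.9 to 88.3 CPM at 1 mg/kg and 69.9 to 88.4 CPM at 6 mg/kg. The 0.1 mg/kg libraries lay above all libraries of the higher doses. Srsf7 and Srsf10 did not overlap at 6 against 0.1 mg/kg, as for 3.01% of genes with lower levels. At 6 against 0.1 mg/kg Srsf7 stood at -0.26 (SE 0.083, edgeR adjusted p = 0.0798), Srsf1 at -0.26 (SE 0.0885, 0.0955), Srsf3 at -0.23 (SE 0.0925, 0.136) and Srsf2 at 0.25 (SE 0.0858, 0.091). DESeq2 called Srsf1, Srsf2 and Srsf7 as well (adjusted p = 0.0435, 0.0447 and 0.0318), and with 1 surrogate variable Srsf2 and Srsf7 passed (0.0486 and 0.0448). These fits called 7.26% and 8.11% of all genes. With the GC and length offset Srsf7 moved to -0.17 (adjusted p = 0.199), Srsf2 to 0.20 (adjusted p = 0.258), Srsf1 to -0.03 and Srsf3 to -0.08. In the prefrontal cortex and the liver no tested member passed at 6 against 0.1 mg/kg with edgeR or DESeq2, where 0.108% and 0.0386% of genes passed with edgeR and 0.782% and 1.14% with DESeq2. At an unadjusted p under 0.05 there were 1 of 8 and 0 of 10 members, against 10.1% and 12.8% of genes.

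No tested member passed in any comparison of a dose with vehicle, with edgeR or with DESeq2. With edgeR 0% of genes passed at any dose in either brain region. With DESeq2 0.182%, 0% and 0.00674% of genes passed at 6, 1 and 0.1 mg/kg in the prefrontal cortex, and 0.172%, 0.0397% and 0.00661% in the striatum. At an unadjusted p under 0.05, 1 of 8 members was found in the prefrontal cortex at 6 mg/kg (Srsf3, higher) and 1 of 8 in the striatum (Srsf10, lower), against 9.27% and 15.7% of genes. Srsf3 (120.3 to 152 CPM against 112 to 117 CPM in vehicle) and Srsf11 (95.8 to 108 against 84.0 to 94.9 CPM) did not overlap vehicle in the prefrontal cortex at 6 mg/kg, nor did Srsf6, as for 1.19% of genes with higher levels. With the GC and length offset Srsf3 moved from 0.20 to 0.12 (SE 0.0855) and Srsf11 from 0.16 to 0.10 (SE 0.0637), and neither had an unadjusted p under 0.05. GC slopes in the prefrontal cortex ran from -0.579 to 0.25 (median -0.248) at 6 mg/kg and from -0.331 to 0.246 (median -0.038) in vehicle, and Srsf11 correlated with them within dose groups at r = -0.748 over 21 libraries. At 1 mg/kg there were 3 of 10 in each region, all higher, against 8.29% and 7.36% of genes. They were Srsf5, Srsf6 and Srsf9 in the prefrontal cortex and Srsf5, Srsf6 and Srsf11 in the striatum. Srsf5 and Srsf6 were chosen against the same vehicle libraries, and without them 1 of 8 remains in each region. With the GC and length offset the members under 0.05 were Srsf5 and Srsf6 (higher) and Srsf7 (lower, -0.19) in the prefrontal cortex, and Srsf7 alone (lower, -0.16) in the striatum. At 0.1 mg/kg there were 5 of 10 in the prefrontal cortex, all higher, against 6.43% of genes (4 of 8 without Srsf5 and Srsf6), and 1 of 10 in the striatum (Srsf7, higher) against 2.53%. Leaving out a library in turn gave 3 to 5 in the prefrontal cortex and 0 to 2 in the striatum at 0.1 mg/kg. At 1 mg/kg it gave 2 to 3 and 2 to 4, and at 6 mg/kg 1 to 2 in each.
The 5 in the prefrontal cortex at 0.1 mg/kg were Srsf2, Srsf3, Srsf6, Srsf9 and Srsf10. Srsf3, the smallest SR protein, was at 124, 129.5, 130.5, 142 and 147 CPM at this dose and at 112, 112, 115 and 117 CPM in vehicle (log2 fold change 0.24, SE 0.0786, edgeR adjusted p = 0.742). Srsf2 was at 121, 122, 124, 126 and 139 CPM against 101, 105, 107 and 116 CPM (0.24, SE 0.0879, adjusted p = 0.742), and Srsf10 was at 56.9 to 70.0 CPM against 48.8 to 55.5 CPM. These 3 of 10 members did not overlap vehicle, against 0.923% of genes for higher levels. The doses share the same 4 vehicle libraries. The plot of fold changes shows all members in the 3 tissues.

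**Figure D3:**
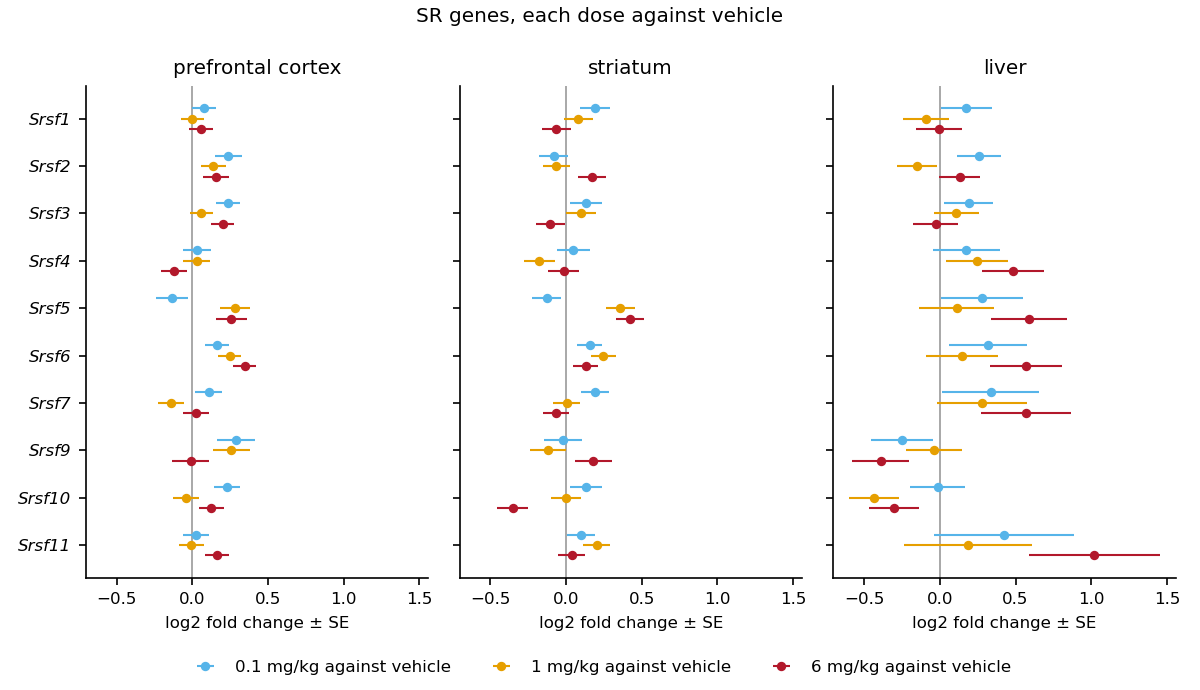
Log2 fold change against vehicle (x axis, points, with bars of 1 SE) for each SR gene (y axis) at 3 doses, by tissue. Brain values lie between -0.35 and 0.42, liver values reach 1.02 with wider bars, and the 6 mg/kg brain values of Srsf5 and Srsf6 are those they were chosen on.

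In the liver at 6 mg/kg, 0 of 10 members passed against vehicle, where 2.8% of 12968 genes passed. At an unadjusted p under 0.05 there were 5 of 10, against 24.2% of genes, and leaving out a library in turn gave 0 to 6. Srsf4 (log2 fold change 0.48, SE 0.206), Srsf5 (0.59, SE 0.251), Srsf6 (0.57, SE 0.238) and Srsf11 (1.02, SE 0.434) were higher and Srsf9 (-0.39, SE 0.186) was lower, with edgeR adjusted p from 0.152 to 0.199. DESeq2 gave no call either. Srsf9 was at 18.5 to 32.4 CPM at 6 mg/kg and 27.5 to 39.9 CPM in vehicle, with overlap.
Srsf11, which promotes inclusion of small neuronal exons, was at 39.4, 50.8, 63.8 and 70.6 CPM in vehicle and at 34.0, 50.1, 111, 112, 179 and 197 CPM at 6 mg/kg. The highest values were animals 52 and 58, and animals 55 and 56 lay within the vehicle range or below it. Srsf6 followed the same animals, with 165 and 174 CPM in animals 52 and 58, and 72.0 and 66.5 CPM in animals 55 and 56, against 72.0 to 87.4 CPM in vehicle. Without animals 52 and 58 the log2 fold change of Srsf11 fell to 0.45, that of Srsf6 to 0.21, that of Srsf4 to 0.26 and that of Srsf7 to 0.14. Srsf5 stayed at 0.56 (SE 0.277).
Srsf5 in the liver was 97.5, 121, 182 and 197 CPM in vehicle and 204 to 265 CPM (median 217) at 6 mg/kg, so that the groups did not overlap, as for 3.26% of genes with higher levels. The range at 0.1 mg/kg was 97.4 to 235 CPM and overlapped both. Leaving out a library in turn gave 0.43 to 0.75 for Srsf5, and without animal 56 Srsf4 passed at 0.60 (adjusted p = 0.045). The summed markers of microglia and macrophages (5 of 5 listed) and the GC slopes given above also differed between these groups: the markers were at 90.6 to 168 CPM at 6 mg/kg and 66.05 to 82.98 CPM in vehicle, and the part of the markers was not tested. Nuclear-retained long noncoding RNAs also did not overlap: Malat1 was at 193.7 to 350.5 CPM at 6 mg/kg and 80.9 to 185.6 CPM in vehicle (log2 fold change 0.97, SE 0.299, edgeR adjusted p = 0.0742), and Neat1 at 226.5 to 693.5 CPM and 40.16 to 171 CPM (adjusted p = 0.124). Their part was not tested. With the GC and length offset Srsf7 moved from 0.57 (SE 0.296) to 0.79 (SE 0.31) and Srsf4 from 0.48 to 0.38. With 1 surrogate variable Srsf7 moved to 0.08 (SE 0.175), Srsf11 to 0.30 (SE 0.251), Srsf6 to 0.24 (SE 0.164) and Srsf4 to 0.28 (SE 0.173), while Srsf5 stood at 0.55 (SE 0.244). At 1 and 0.1 mg/kg in the liver 0 of 10 members passed, against 0% and 0.0154% of genes, and 1 of 10 (Srsf10, lower, log2 fold change -0.43, SE 0.166) and 0 of 10 had an unadjusted p under 0.05, against 8.44% and 4.1%.

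**Figure D4:**
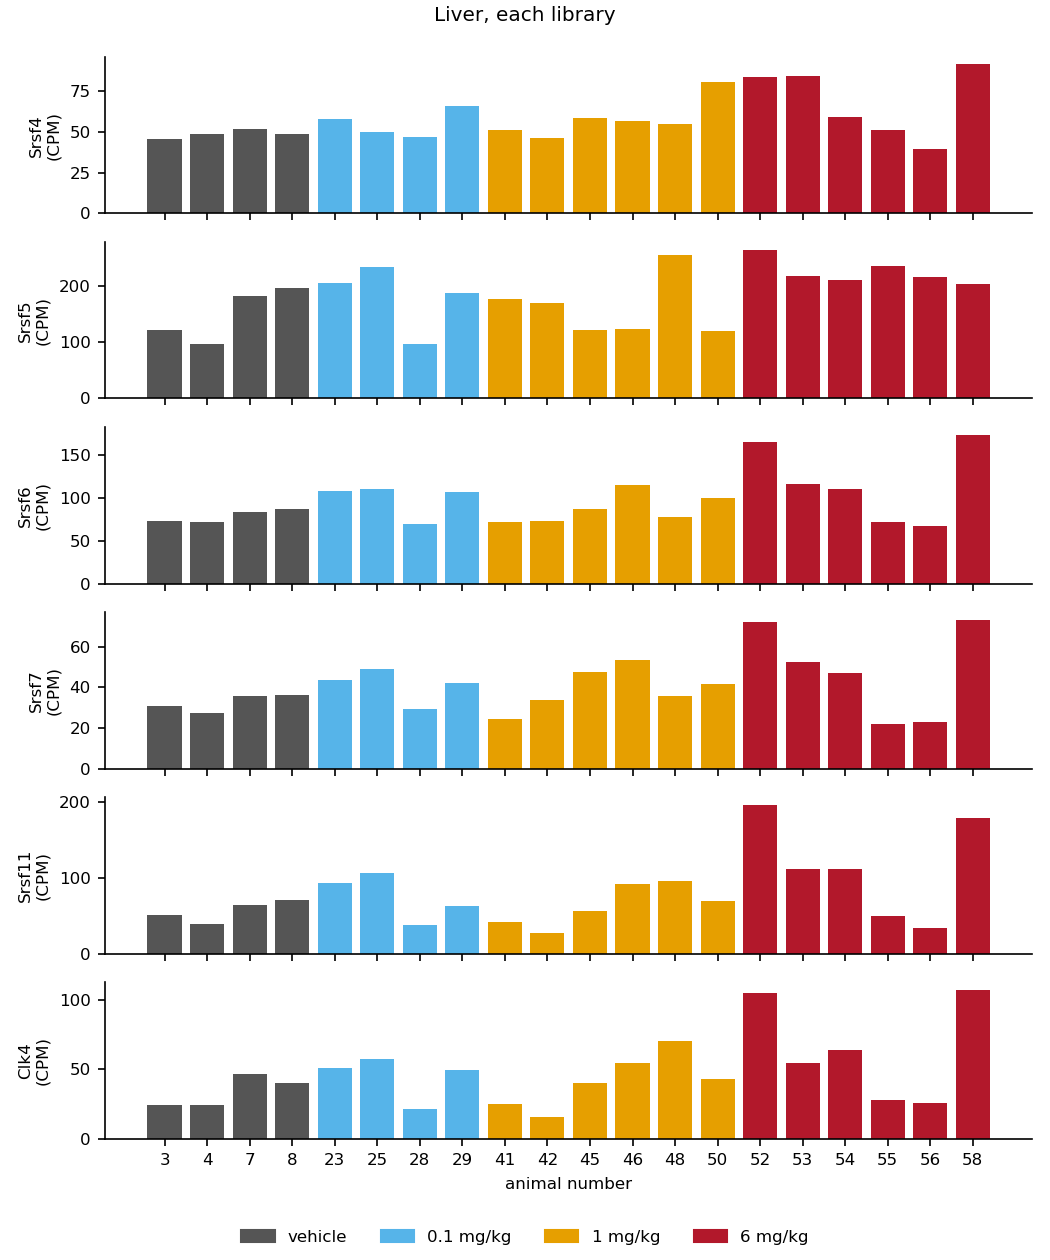
CPM (y axis, from 0) of 5 SR genes and of the kinase gene Clk4 in each of 20 liver libraries (x axis, animal number), coloured by dose. Among the 6 mg/kg animals Srsf6, Srsf7, Srsf11 and Clk4 are highest in 52 and 58 and lowest in 55 and 56, while Srsf5 is at 204 CPM or above in all 6.

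The difference of the 6 mg/kg effect between tissues was tested for 8 members and none passed, with edgeR or DESeq2. The background with edgeR was 0% of 15043 genes for striatum minus prefrontal cortex, 0.899% of 14351 for liver minus prefrontal cortex and 0.0277% of 14454 for liver minus striatum, and with DESeq2 it was 0%, 6.47% and 0.927%. At an unadjusted p under 0.05 there were 2 of 8 members in each, against 6.43%, 20% and 14.3% of genes. Leaving out an animal in turn gave 1 to 2, 0 to 4 and 0 to 4 members. The smallest p was that of Srsf10 for striatum minus prefrontal cortex (-0.49, SE 0.127, edgeR adjusted p = 0.746). Srsf5 stood at 0.16 (SE 0.131) there, with no test. Deviations from the dose group mean were correlated between the 2 brain regions of 21 animals, and 0 of 10 members passed. The highest was Srsf10, with Pearson r = 0.367 (permutation p = 0.11) and Spearman rho = 0.345 (permutation p = 0.145), a permutation p adjusted over 10 members of 0.695, and r = 0.322 without the 2 farthest animals.

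Some members varied together within dose groups, and in the striatum pairs of like GC content, other than those of Srsf5, had higher correlations. Deviations of log2 CPM from the dose group mean were correlated over 21 libraries in each brain region and 20 in the liver, and p-values came from permutation within dose groups, adjusted over 195 pairs that include Clk1 and Clk4. The share of passing pairs among other genes was not computed. In the striatum 10 of 45 member pairs passed, all positive. The highest was Srsf3 with Srsf7 (r = 0.814, permutation p = 0.00012, rho = 0.779, permutation p = 0.00015, adjusted 0.00292), with r = 0.725 without the 2 farthest libraries. Srsf1, Srsf3, Srsf6, Srsf7 and Srsf10, with GC contents of 40.6 to 42.8%, made up 8 of these pairs, and Srsf2, Srsf4 and Srsf9, with 48.9 to 53%, stood apart from them. The median r was 0.606 over the 21 pairs with none of those 3 and -0.0573 over the 21 pairs with one of them. After the offset for GC content and length these medians were 0.321 and 0.373, and Srsf3 with Srsf7 stood at 0.283. Srsf5 has the lowest GC content, at 40.1%. Before the offset its r ran from 0.223 (Srsf10) to 0.398 (Srsf6) with Srsf1, Srsf3, Srsf6, Srsf7 and Srsf10. With Srsf2, Srsf4 and Srsf9 it ran from 0.192 (Srsf2) to 0.327 (Srsf4).
In the prefrontal cortex 5 of 45 pairs passed. Srsf1 with Srsf10 was highest at r = 0.805 (permutation p = 0.00022, rho = 0.679, permutation p = 0.00148, adjusted 0.0039), at 0.714 without the 2 farthest libraries and at 0.757 after the offset. Srsf4 with Srsf11 was lowest at r = -0.673 (permutation p = 0.00341, rho = -0.675, permutation p = 0.00387, adjusted 0.0266), at -0.628 without the 2 farthest libraries, and was at -0.401 after the offset. Srsf5 was in no passing pair in either brain region or the liver, and its correlation with the library GC slope was 0.0695 (prefrontal cortex), -0.0628 (striatum) and -0.335 (liver).
In the liver 9 of 45 pairs passed, all among Srsf4, Srsf6, Srsf7, Srsf10 and Srsf11. Srsf6 with Srsf7 was highest at r = 0.951 (permutation p = 1e-05, the smallest the draws can give, rho = 0.878, permutation p = 0.00012, adjusted 0.000487), at 0.921 without the 2 farthest libraries and at 0.962 after the offset. Srsf11 followed Clk4 at r = 0.961 and Clk1 at r = 0.944 in the liver (permutation p = 1e-05 and rho = 0.932 for both, adjusted 0.000487), at 0.954 and 0.931 without the 2 farthest libraries, and Clk1 at r = 0.91 in the striatum (rho = 0.897, adjusted 0.000487), at 0.878 without them. CLK kinases phosphorylate SR proteins. The within-group SD of Srsf11 was 0.76 (log2) in the liver and 0.107 in the prefrontal cortex, where the median gene had 0.392 and 0.224.

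**Figure D5:**
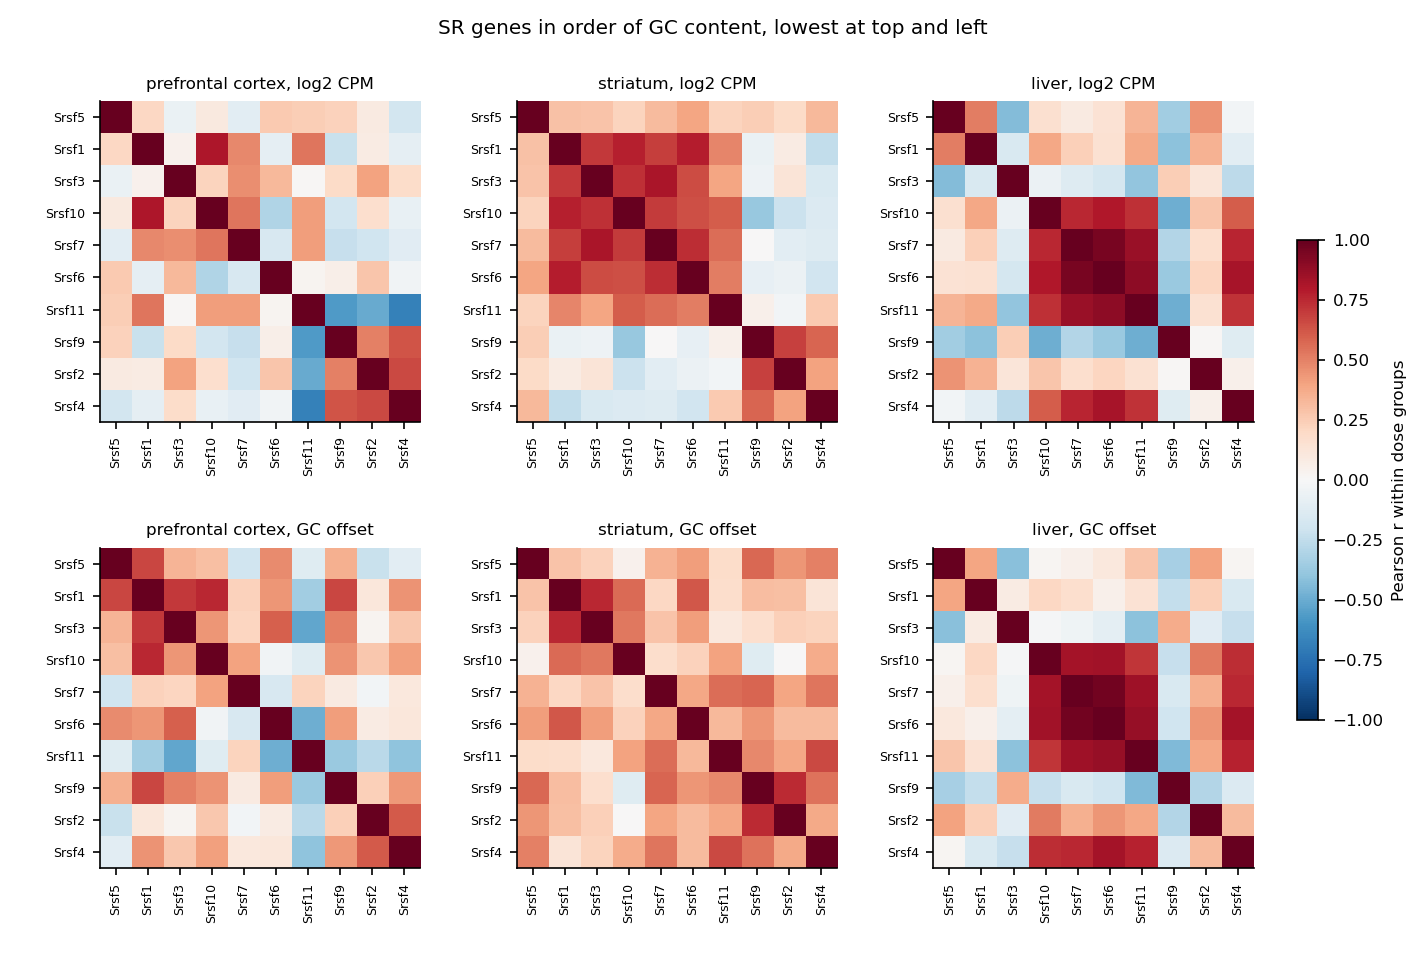
Pearson r of deviations within dose groups between SR genes, ordered by GC content from lowest to highest, for log2 CPM (top) and after an offset for GC content and length (bottom), by tissue. In the striatum the block of positive values among the lower-GC genes is weaker after the offset, while in the liver the block of Srsf4, Srsf6, Srsf7, Srsf10 and Srsf11 remains.

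Partner genes of the SR proteins were taken from 6 lists of 102 genes (kinases and import, SR-related proteins, hnRNP proteins, nonsense-mediated decay factors, tissue regulators, and cold-inducible or nuclear-retained RNAs). Against vehicle 0 of 100 tested list genes passed at any dose in the prefrontal cortex and 0 of 101 in the striatum, where 0% of all genes passed. In the striatum at 6 mg/kg, 3 were higher and 19 lower of 101 at an unadjusted p under 0.05. Of all genes 15.7% were under it in both directions together. The share of all genes by direction at an unadjusted p was not computed, so the 19 lower have no matching background. In the liver at 6 mg/kg 1 of 93 passed, against 2.8% of all genes. It was Esrp2, an epithelial splicing regulator, which rose from 83.05 ± 13.2 CPM (SD, n = 4) to 154.8 ± 50.7 CPM (n = 6), a log2 fold change of 0.90 (SE 0.223, adjusted p = 0.0346). Of the kinases there, Clk4 stood at 0.92 (SE 0.433, adjusted p = 0.2), Clk2 at 0.95 (SE 0.363, 0.124) and Srpk1 at 0.22 (SE 0.192, 0.507), so none passed. The hnRNP proteins, which often oppose SR proteins on exons, had 1 higher and 8 lower of 26 at an unadjusted p under 0.05 in the liver at 6 mg/kg. Of all genes 24.2% were under it in both directions together. The median log2 fold change of the hnRNP list was -0.246, against 0.023 for all genes. The SR-related proteins had 6 higher and 0 lower of 27, a share near that of all genes, with a median of 0.263. Without animals 52 and 58 the share of all genes passing in the liver fell from 2.8% to 0.101%, and the list genes were not recomputed without them. The liver GC slopes, macrophage markers and nuclear-retained RNAs given above differ between these groups too.
In the striatum at 6 against 0.1 mg/kg, 9 of 101 list genes passed, 1 higher (Neat1, a nuclear long noncoding RNA, log2 fold change 0.70, SE 0.184, adjusted p = 0.0431) and 8 lower, against 2.91% of genes. Of the SR-related list 5 of 29 passed, all lower. Tra2b, a partner of SR proteins on exonic enhancers, fell by 0.38 (SE 0.0978, adjusted p = 0.0385) and Ppig, a cyclophilin with a tail of SR type, fell by 0.61 (SE 0.109, adjusted p = 0.0209), both on the log2 scale. Hnrnpu fell by 0.34 (SE 0.0775, adjusted p = 0.0327) and Upf2, which acts in nonsense-mediated decay, fell by 0.40 (SE 0.106, adjusted p = 0.0431). The GC slopes and cell type markers given for Srsf10 move with this comparison too, and the GC and length offset lowered the share of all genes that passed from 2.91% to 0.291%.

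Over the 42 brain libraries and 10532 genes, the likeness of genes to Srsf5 and Srsf6 is given as a description. It is the Pearson r of log2 CPM deviations from the mean of each region and dose group. The genes most like Srsf5 were Ewsr1 at 0.622, Hnrnpa1 at 0.607, 1110038F14Rik at 0.597, Llph at 0.584 and Hirip3 at 0.584. For Srsf6 they included Slc24a5 at 0.659, Mphosph10 at 0.628, Tax1bp1 at 0.621 and Pros1 at 0.621. No gene named for Srsf5 is among those named for Srsf6. These libraries include the dose groups on which Srsf5 and Srsf6 were chosen.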

How the data were processed

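RNA sequencing libraries of 3 tissues were analysed from tables of whole-number counts per gene that the authors deposited, with 1 column per library, and from no other unit. The submitters' processing notes name FastQC, HISAT2 and mm10. How reads were counted (tool, annotation, strand) is not given in the sources used here, and per the labels messenger RNA was enriched by poly(A) capture or rRNA removal, without saying which. The SR genes, the gene lists and the added comparisons were chosen with earlier results of these data known.

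The fits used edgeR 4.0.16 under R 4.3.3 (filterByExpr, TMM scaling, robust quasi-likelihood, all dose groups of a tissue in a single fit), with Benjamini-Hochberg adjustment over all tested genes and a threshold of 0.05. Srsf5 and Srsf6 were left out of counts of calls in brain contrasts at 6 mg/kg. Levels are TMM-scaled CPM. A prior count of 2 was added before taking log2. Symbols, coordinates and promoters came from RefSeq GRCm38.p6 (names for 99.95 to 99.97% of identifiers), and length and GC content from the longest GENCODE transcript (98.4 to 98.5% of tested genes). Libraries held 7381179 to 12135200 counts. No pair of libraries in a group agreed within sampling noise (chi-square per degree of freedom at least 2.94), so each counted as 1 replicate, and p-values measure the spread between these libraries. Fits were tested on simulated data. All members and, per list, at most 4 passing genes (or 2 with the smallest p) were eligible to be named, beside kinases and a few fixed partners. Of the 9 marker lists, some whose sums differed between the groups compared are given beside the result.

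Alternatives were DESeq2 1.42.0, median-ratio size factors, library totals, 2 other filters on low counts, the 2 groups alone, a GC and length offset, 1 surrogate variable (sva 3.50.0), each library left out in turn, and the animal number as a block. The same animal number in 2 tissues was taken as the same mouse. Same-animal libraries deviated together with a mean r across genes of 0.113 between the brain regions (12 of 21 above 0.1), 0.00635 for the liver with the prefrontal cortex and 0.0052 for the liver with the striatum. Permutation tests were two-sided with 100000 draws, in Python. A few list and likeness genes are not reported here.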

Additional observations from a re-analysis of the deposited data

Results flagged for a closer look

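Of the 120 sets of libraries of a gene in a group, 7 held a library whose gap to its nearest neighbour took most of the group's range (Dixon's ratio at the 95% level), where chance gives about 1 in 20, or 6. They were Srsf1 in the striatum at 0.1 mg/kg (animal 24, 138.8 CPM), Srsf4 in the liver at 1 mg/kg (animal 50, 81.02 CPM), Srsf6 in the striatum at 6 mg/kg (animal 52, 106.2 CPM), Srsf6 in the liver at 0.1 mg/kg (animal 28, 69.13 CPM), Srsf7 in the striatum at 1 mg/kg (animal 50, 65.91 CPM), Srsf10 in the prefrontal cortex of vehicle mice (animal 3, 48.77 CPM) and Srsf10 in the liver at 1 mg/kg (animal 46, 32.33 CPM). Animal 28 at 0.1 mg/kg was also the lowest of its liver group for Srsf5, Srsf7, Srsf10 and Srsf11.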

How the results depend on the processing

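In all, 3440 member values were recomputed under the alternatives, and 3387 counted as unchanged. A tested value did so if it kept its side of the threshold and, where called, its direction. Where Srsf5 and Srsf6 were not tested, a value did so if its log2 fold change moved by less than 1 SE. For comparisons of a dose with vehicle, no alternative gave a passing tested member except in the liver at 6 mg/kg, where leaving out a library gave 0 to 1. At 1 against 0.1 mg/kg, where edgeR gave 0, DESeq2 and 1 surrogate variable each gave 1 in the prefrontal cortex (Srsf5) and 1 in the striatum (Srsf5), and the GC and length offset gave 1 in the striatum (Srsf7). Leaving out a library gave 0 to 1 in the striatum. At 6 against 0.1 mg/kg in the striatum, where edgeR gave 1, DESeq2 gave 4 and 1 surrogate variable gave 3 (with 7.26% and 8.11% of all genes, against 2.91%), and leaving out a library gave 0 to 1. The causes of these changes were not tested.

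Between vehicle tissues, leaving out an animal gave 0 to 1 passing members for striatum against prefrontal cortex, 5 to 6 for liver against prefrontal cortex and 5 to 7 for liver against striatum. With library totals in place of TMM, an alternative chosen after the data were seen, Srsf4, Srsf10 and Srsf11 reversed in the liver against the prefrontal cortex (-0.26, -0.49 and -0.46) and against the striatum (-0.35, -0.56 and -0.23), as the median of all genes moved from -0.19 to -0.893 and from -0.204 to -0.872. With the animal number as a replicate block, 1, 5 and 7 members passed in the 3 vehicle comparisons and 0 in each interaction, and the block changed no other call. In the liver against the prefrontal cortex DESeq2 also called Srsf3 (lower, adjusted p = 0.0262), and with no filter on low counts Srsf7 passed as lower there (adjusted p = 0.0381) and Srsf1 against the striatum (adjusted p = 0.0437).

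Depth set no floor for these genes, since the lowest count was 159. The number of libraries, 4 to 6 a group, limits the precision.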
